A study of Homo sapiens with 9 samples.

Results

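Fructose-bisphosphate aldolase, triosephosphate isomerase, glyceraldehyde-3-phosphate dehydrogenase, phosphoglycerate kinase, phosphoglycerate mutase, enolase, pyruvate kinase and lactate dehydrogenase carry glucose carbon from fructose bisphosphate to pyruvate and lactate. Binding of the hypoxia-inducible factor HIF-1α was examined at 10 genes that encode them: ALDOA, ALDOC, TPI1, GAPDH, PGK1, PGAM1, ENO1, ENO2, PKM and LDHA. Each gene was given a window on hg19 of 30 to 70 kb, 480 kb in all, and a gene counted as called in a library when a peak summit of that library's list lay in its window. The windows enclose named genes and their flanks, and no peak value enters the rule, but genes and windows were picked with earlier results of these data known. They held 25 of the 9420 regions formed by joining the intervals of all lists, and 9 of the 10 genes had at least 1 such region.

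Peak lists came from chromatin immunoprecipitation and sequencing (ChIP-seq) with an antibody to HIF-1α. The cells were of the established MYCN-amplified neuroblastoma line SK-N-BE(2). They were grown in RPMI medium with serum and kept for 48 hours either at 21% oxygen, called normoxia, or at 1% oxygen, called hypoxia, with 3 HIF-1α libraries for each; the 3 input libraries were from 21% oxygen alone. Every HIF-1α library has a list of its own, and the labels do not state whether libraries of a group are independent cultures, so their spread may be technical. The number of intervals was 75, 32 and 109 for normoxia 1 to 3, against 1408, 5833 and 7619 for hypoxia 1 to 3, and background depth was 5.31 to 6.69 reads per kb. Fragment extension, read from the shortest interval of a list, was short (46 to 48 bp) for the normoxia libraries as well as for hypoxia 1, but long for hypoxia 2 (155 bp) and hypoxia 3 (167 bp). Summit reads are on 1 scale only among the 4 libraries with the short extension. The identity of the cells could not be checked against marker genes, because peak lists hold no expression values.

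In oxygenated cells HIF-1α is hydroxylated by prolyl hydroxylases, bound by the von Hippel-Lindau protein and degraded; in low oxygen it accumulates, pairs with ARNT and binds hypoxia response elements, whose core is ACGTG or GCGTG. Genes of the glycolytic enzymes are among the classic targets of HIF-1, and their induction lets cells make ATP from glucose without oxygen. Lactate dehydrogenase A then regenerates the NAD that GAPDH uses.

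The promoters of 5 genes are shown to set the letters of the core beside the calls: LDHA, which had no call, PGK1, GAPDH and ENO1, which were among the strongest, and PGAM1, which was called in every hypoxia library. Each line gives the 250 bases before the RefSeq start of transcription (GRCh38.p14), 5′ to 3′ on the gene's own strand, with ACGTG or GCGTG on either strand in capitals.
LDHA (first of 2 starts): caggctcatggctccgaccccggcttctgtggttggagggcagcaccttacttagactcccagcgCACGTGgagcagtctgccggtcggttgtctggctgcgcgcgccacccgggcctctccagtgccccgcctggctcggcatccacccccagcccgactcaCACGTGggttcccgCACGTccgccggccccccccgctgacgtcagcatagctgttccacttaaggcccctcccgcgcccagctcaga
PGK1: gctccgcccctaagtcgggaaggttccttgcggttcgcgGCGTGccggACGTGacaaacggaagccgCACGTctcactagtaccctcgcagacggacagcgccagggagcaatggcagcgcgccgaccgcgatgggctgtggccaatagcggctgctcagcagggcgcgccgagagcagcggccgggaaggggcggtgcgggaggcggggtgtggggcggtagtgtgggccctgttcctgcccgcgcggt
GAPDH: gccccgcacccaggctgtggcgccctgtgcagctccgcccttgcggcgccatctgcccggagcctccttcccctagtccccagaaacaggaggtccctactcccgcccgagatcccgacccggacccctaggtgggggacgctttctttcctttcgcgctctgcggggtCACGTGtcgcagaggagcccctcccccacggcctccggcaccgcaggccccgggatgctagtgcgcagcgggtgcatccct
ENO1: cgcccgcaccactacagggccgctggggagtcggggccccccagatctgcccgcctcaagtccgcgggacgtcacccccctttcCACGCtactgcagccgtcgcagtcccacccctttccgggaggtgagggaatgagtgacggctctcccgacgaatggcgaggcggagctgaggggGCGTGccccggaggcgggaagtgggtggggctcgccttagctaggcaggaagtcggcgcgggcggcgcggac
PGAM1: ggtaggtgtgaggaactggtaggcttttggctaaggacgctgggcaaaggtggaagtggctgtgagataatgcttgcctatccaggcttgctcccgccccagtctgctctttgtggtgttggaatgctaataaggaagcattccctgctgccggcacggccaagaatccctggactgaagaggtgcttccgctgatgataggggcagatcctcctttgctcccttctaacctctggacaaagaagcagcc

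A promoter entry runs from 250 bases before to 50 bases after the start, and all 10 genes had at least 1, with 14 entries in total. ACGTG or GCGTG was present in 12 of the 14 entries and in 9 of the 10 genes, and in 48.4% of the 35116 entries of the whole table. That share is per entry. A share per gene, which several entries of a gene would raise, was not computed. ACGTG alone stood in 9 of the 14 entries and in 21.4% of all. Where matches overlap they were counted as 1 site, since CACGTG, the E-box that MYC proteins also bind, reads ACGTG on both strands. LDHA at its first start, PGK1 and ALDOC had 4 sites each. In LDHA 2 of these were the E-box CACGTG, found in 7.26% of all entries, and in GAPDH the single site was one as well. ALDOC and the second ALDOA entry also held 1 such E-box each. ENO1 had 2 sites, both GCGTG. PGAM1 had none in this window. ALDOA and PKM, also among the strongest, are not printed. PKM had 1 site, a GCGTG after the start, and none in the 250 bases before it. These are letters in a sequence and not measured sites, and since the lists and the promoter table use different builds, whether a summit lies inside a printed promoter was not tested.

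HIF-1α was called at 9 of the 10 genes in every hypoxia library. Hypoxia 1, 2 and 3 each had summits in the windows of ALDOA, ALDOC, TPI1, GAPDH, PGK1, PGAM1, ENO1, ENO2 and PKM, and none had one in that of LDHA. Normoxia 1 had a call at 1 gene (GAPDH), normoxia 2 at 0 and normoxia 3 at 5 (ALDOA, GAPDH, PGAM1, ENO1 and PKM). The means were 9 ± 0 genes in hypoxia and 2 ± 2.65 genes in normoxia (SD, n = 3 each), and the groups did not overlap. As background, 1.66% of all 50 kb tiles of the genome held a summit of all 3 hypoxia lists (1.01% of 30 kb tiles and 2.31% of 70 kb tiles). A summit of at least 2 hypoxia lists lay in 5.89% of 50 kb tiles (3.67% at 30 kb, 8.0% at 70 kb), and one of any normoxia list in 0.205% (0.127% and 0.288%). Tiles include sequence without genes, whereas the windows were placed on genes, so the tiles give only the general density of calls. The normoxia count rested on normoxia 3: without it, GAPDH alone had a normoxia call.

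**Figure D1:**
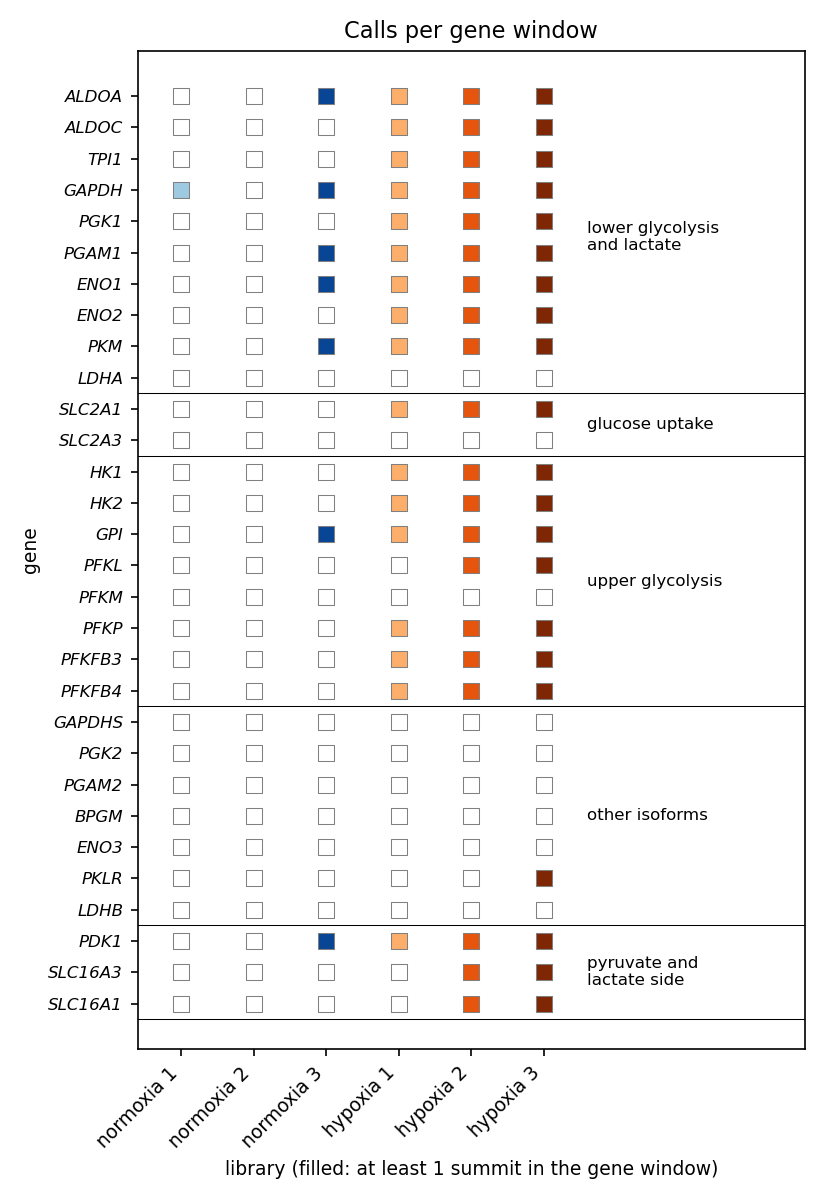
Calls in the windows of the 10 genes (top block) and of 20 other genes of the pathway, with 1 column per library; a filled square means at least 1 summit in the window. Among the 10, LDHA is the only row without a filled square, and 5 of these 10 rows have a filled square in normoxia 3.

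Each called gene had 1 main site, the region with the highest mean percentile of fold in the hypoxia lists, and all 9 main sites were called in all 3 hypoxia libraries. Fold is the authors' ratio of summit reads to local background, each plus 1, and describes a peak within its own list. Since a main site is by definition the highest region of its window, its rank and fold are raised by that choice and are given as a description. The mean percentile of the 9 had a median of 98.6, and that of all 1085 regions called in all 3 hypoxia lists, which were not chosen in this way, was 76.8. The median fold of the 9 was 21.2, 53.4 and 50.9 in hypoxia 1, 2 and 3, and that of all intervals was 6.07, 6.53 and 6.12. In hypoxia 1, 2 and 3, 2, 4 and 5 of the 9 stood in the first 1% of the list by fold, and 7, 7 and 9 in the first 10%.

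The aldolase genes differed in height. ALDOA encodes the ubiquitous aldolase that splits fructose bisphosphate, and its main site on chromosome 16 (30076386 to 30077277) had 37, 192 and 204 reads at the summit in hypoxia 1, 2 and 3, with folds of 27.9, 91.1 and 60.8. It ranked 9, 8 and 47 by fold in these lists. Normoxia 3 had a short interval of 49 bp inside this site with 14 reads and a fold of 5.43, over a local background 6 times the genome-wide value, and normoxia 1 and 2 had no call. ALDOC encodes the aldolase typical of brain; its main site on chromosome 17 (26903757 to 26904174) had 15, 57 and 61 reads and folds of 12.1, 17.02 and 21.6, and no normoxia list called it. Summit reads at ALDOA were 2.47, 3.37 and 3.34 times those at ALDOC in hypoxia 1, 2 and 3, a geometric mean of 3.03 (log2 1.6 ± 0.26, SD, n = 3). ALDOA was higher in 3 of 3 libraries, and the two-sided exact sign-flip permutation test gave p = 0.25, the smallest that 3 libraries allow.

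TPI1 encodes the isomerase that converts dihydroxyacetone phosphate to glyceraldehyde 3-phosphate. Its main site on chromosome 12 (6976661 to 6977569) had 8, 32 and 36 summit reads in hypoxia 1, 2 and 3, with folds of 6.80, 14.7 and 19.5. It was low in hypoxia 1, where it ranked 570 of 1408 by fold, and stood in the first 11.2% and 6.47% of the lists of hypoxia 2 and 3.

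GAPDH, which oxidises glyceraldehyde 3-phosphate, had the longest site of the 9, 1838 bp on chromosome 12 (6642376 to 6644213). Its summit reads were 33, 138 and 147 in hypoxia 1, 2 and 3, with folds of 25.6, 53.4 and 74.0. The 3 highest summits fell within 6 bp, at 6643541, 6643535 and 6643538. Hypoxia 2 and 3 had another summit in the site, at 6642701 and 6642704, with 80 and 92 reads and folds of 42.2 and 41.3; in hypoxia 1 the nearest one to it had 14 reads and a fold of 5.59. The site was the only one called in 2 normoxia libraries, with 9 reads in normoxia 1 and 14 in normoxia 3 and folds of 7.59 and 7.97. The normoxia 1 summit lay 17 bp from the median hypoxia summit. Normoxia 3 had 3 summits in the site, 15, 150 and 344 bp away from it, and the last was its best by p.

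PGK1 makes ATP from 1,3-bisphosphoglycerate. Its main site on the X chromosome (77359136 to 77360004) had 27, 109 and 126 summit reads in hypoxia 1, 2 and 3, with folds of 21.3, 57.3 and 50.9. It ranked 33, 49 and 73 by fold, and no normoxia list had a call there. PGAM1 moves the phosphate of 3-phosphoglycerate; its main site on chromosome 10 (99185719 to 99186116), the shortest of the 9 with 398 bp, had 28, 103 and 108 reads and folds of 15.7, 34.8 and 57.8. Normoxia 3 called it too, with 9 reads and a fold of 7.73, 8 bp from the hypoxia 1 summit.

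The enolase genes, like the aldolase genes, had a high and a low member. ENO1 encodes the ubiquitous enolase and had the most summit reads of the 9 genes in each hypoxia library: 44, 209 and 241, with folds of 24.4, 80.6 and 96.9, at chromosome 1 (8938459 to 8939744). Normoxia 3 had an interval of 557 bp here, with 16 reads and a fold of 13.0, which ranked 10 of 109 in that list. ENO2 encodes the neuron-specific enolase, a marker of neuroendocrine cells; its main site on chromosome 12 (7023245 to 7023899) had 8, 23 and 51 reads and folds of 6.41, 12.4 and 27.6, with no normoxia call. Reads at ENO1 were 5.5, 9.09 and 4.73 times those at ENO2, a geometric mean of 6.18 (log2 2.63 ± 0.49, SD, n = 3; higher in 3 of 3 libraries, two-sided exact sign-flip permutation p = 0.25, the smallest possible).

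PKM encodes the pyruvate kinase M isoforms, and its window held 2 sites called in all 3 hypoxia libraries, the only window that did. The main one on chromosome 15 (72518932 to 72519587) had 38, 153 and 153 summit reads and folds of 21.2, 65.0 and 47.5 in hypoxia 1, 2 and 3, and no normoxia call. The other (72522701 to 72523038) had its summit at the same base, 72522873, in all 3 hypoxia libraries, with 12, 44 and 63 reads and folds of 9.02, 20.1 and 31.0. Its reads were 0.316, 0.288 and 0.412 times those of the main site. It lay 3660 bp toward higher coordinates, which for a gene on the minus strand is toward the 5′ side. Normoxia 3 had a call at this weaker site, with 6 reads and a fold of 5.19, 65 bp from the hypoxia summits, and not at the stronger one. A further 2 regions of the window stood within 5 kb of the main site, 1 of them called in hypoxia 2 and 3 with folds of 10.4 and 10.3.

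**Figure D2:**
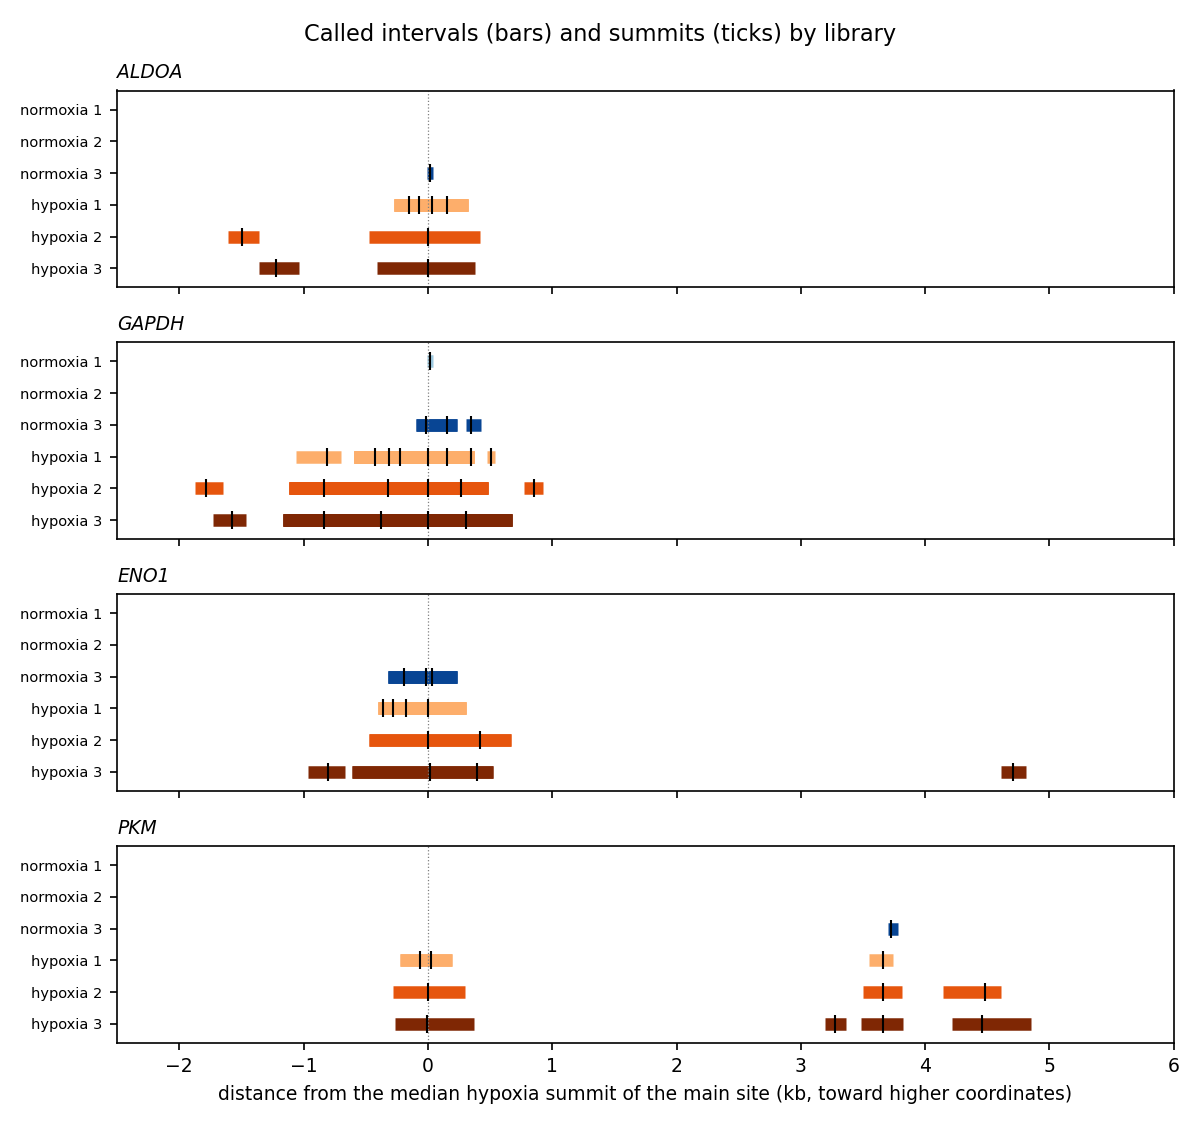
Called intervals (bars) and summits (ticks) around the main sites of ALDOA, GAPDH, ENO1 and PKM, by library, against the distance in kb from the median hypoxia summit; sites farther out are not drawn. In the hypoxia libraries GAPDH has the widest intervals of the 4 genes; PKM has a second site in 4 libraries, 3660 bp from the first in hypoxia, while normoxia 3 has a bar at all 4 genes and normoxia 2 at none.

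LDHA, the muscle-type subunit of lactate dehydrogenase, had no summit in its 50 kb window in any of the 6 lists. The nearest intervals lay 55.9 kb outside the window in hypoxia 3, 270 kb outside in hypoxia 2 and 2762 kb outside in hypoxia 1. Chromosome 11 as such was not empty, with 96, 357 and 491 intervals in hypoxia 1, 2 and 3, and the peak numbers in each list run without a gap. A missing call limits the signal and does not show an absence of binding: at the genome-wide background a summit needed at least 5, 7 and 6 reads for a call in hypoxia 1, 2 and 3, and more where local background is higher. The lowest main sites of the other genes had 8, 23 and 36 reads in these libraries. Local background and mappability at LDHA are not in the lists, and their part in the missing call was not tested. The printed promoters held 3 core sites at LDHA, 3 at PGK1, 2 at ENO1, 1 at GAPDH and 0 at PGAM1. Whether core sites bear on the missing call was not tested.

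**Figure D3:**
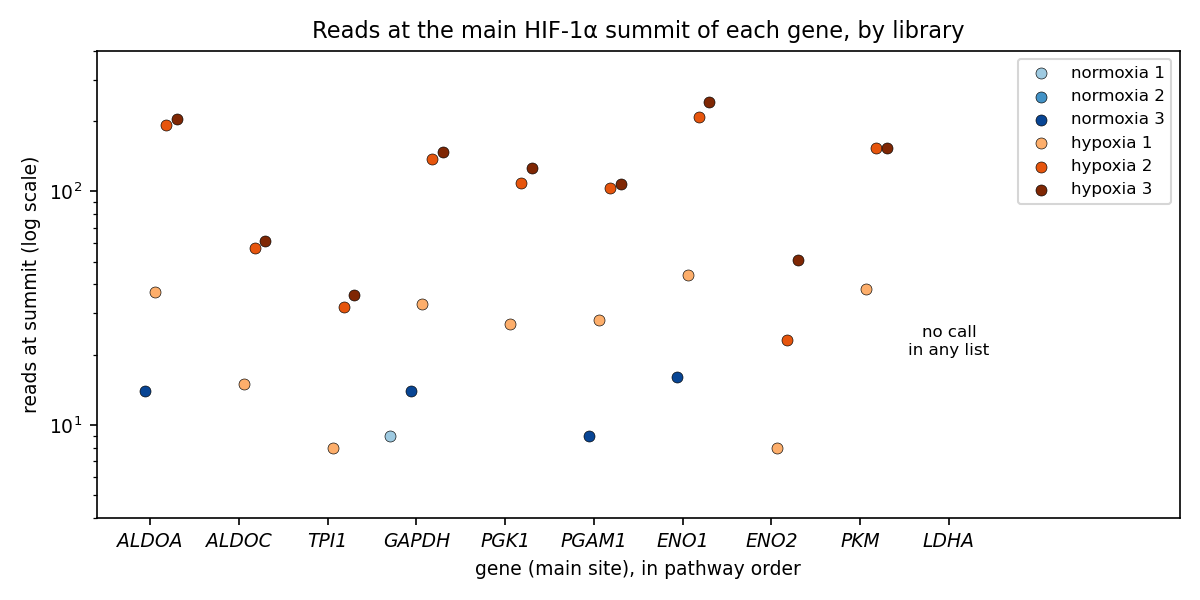
Reads at the summit of the main site of each gene (log axis), with 1 point per library that called it; hypoxia 2 and 3 use longer fragment extensions, so their heights are not on the scale of the other 4. ENO1 is highest and TPI1 and ENO2 are lowest in each hypoxia library, and normoxia points, where present, are between 9 and 16 reads.

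ENO1, ALDOA and PKM held most reads and TPI1 and ENO2 fewest. Reads were expressed as a share of the summed summit reads of the 9 main sites. A share removes only a factor common to all sites of a library. Fragment extension was short in hypoxia 1 and long in hypoxia 2 and 3, and its effect on single sites was not tested. ENO1 took 20.1 ± 1.49%, ALDOA 17.5 ± 1.75%, PKM 14.9 ± 1.21%, GAPDH 13.5 ± 0.418%, PGK1 11.1 ± 0.319%, PGAM1 10.5 ± 1.13%, ALDOC 5.78 ± 0.467%, ENO2 3.38 ± 1.13% and TPI1 3.24 ± 0.112% (SD, n = 3 each). Of the neighbours in this order, only PGK1 and PGAM1, and ENO2 and TPI1, differed by less than the larger of their SDs. ALDOA was above PKM, and PGK1 above PGAM1, in 2 of 3 libraries. The widest step was from PGAM1 to ALDOC, whose exact Poisson 95% intervals did not overlap in 2 of 3 libraries. Among the upper 6 genes those of neighbours overlapped in all 3. These intervals cover counting error only. In hypoxia 1 the 8 reads at TPI1 and ENO2 have an interval of 3.45 to 15.8. Copy number of the loci in this cell line and input reads at them were not measured here.

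The spread of the summits between libraries was near that of other recurrent regions. The highest hypoxia summits of a main site lay 6 to 86 bp apart, with a median of 59 bp over the 9, close to the 52 bp (quartiles 32 and 84) over all 1085 regions called in all 3 hypoxia lists. The main sites had median lengths of 422, 622 and 655 bp in hypoxia 1, 2 and 3, against 111, 246 and 259 bp over all intervals of these lists.

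The other 16 regions are lower than the main site of their own gene by definition, but not lower than every main site. The second PKM site had higher folds than the main sites of TPI1 and ENO2 in all 3 hypoxia libraries, and than that of ALDOC in hypoxia 2 and 3. The median fold of the 16 was 6.77 in hypoxia 2 (10 regions) and 5.83 in hypoxia 3 (14 regions), and hypoxia 1 called 1 of them, the second PKM site. Of the 25 regions, 17 had a call in at least 2 hypoxia lists (43.9% of all 9420 regions did), 10 in all 3 (11.5% of all) and 8 in 1. A normoxia call was present in 5 of the 25 (1.46% of all). Of the 16, 10 lay within 5 kb of the main summit and 6 at more than 10 kb, the farthest 35.7 kb away in the PGK1 window. Distance alone does not assign a region to a gene, and the next genes in the RefSeq table are TAF9B for PGK1, USP5 for TPI1, ATN1 for ENO2 and EXOSC1 for PGAM1. The summit closest to a window's edge on the inside was in the TPI1 window, 1.07 kb from the edge with a fold of 7.29 in hypoxia 2, and the closest on the outside was near PGAM1, 8.97 kb away with a fold of 5.30 in hypoxia 3.

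**Figure D4:**
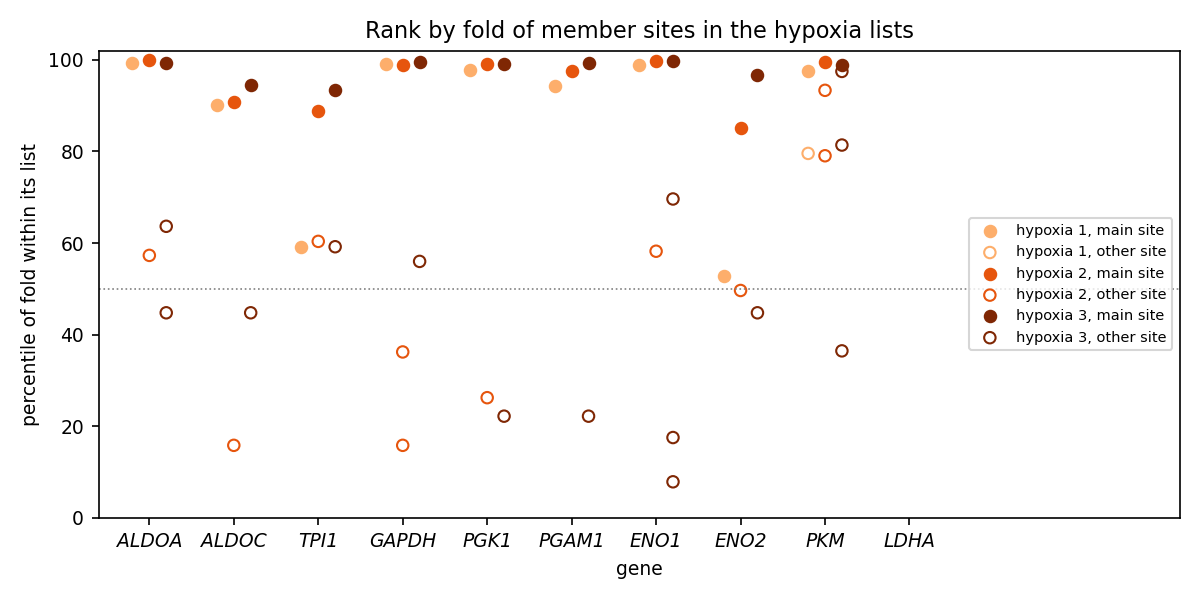
Percentile of fold within its own list for the main site (filled) and the other sites (open) of each gene in the hypoxia lists; the dotted line is the median of a list. All 27 filled points lie above the line, the lowest being ENO2 in hypoxia 1, and the open points are spread over the range.

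Sites called in both conditions mostly had fewer summit reads in normoxia, with an exception inside the GAPDH site. Among the 4 libraries with a short extension, 6 pairs of a normoxia call and a hypoxia 1 call at the same region could be compared at the summit of smallest p in each list, after dividing summit reads by the background reads per kb. At ALDOA the corrected values were 2.24 in normoxia 3 and 5.59 in hypoxia 1, a ratio of 2.5. At ENO1 they were 2.56 and 6.65, a ratio of 2.60. At PGAM1 they were 1.44 and 4.23, a ratio of 2.94. GAPDH had 1.35 in normoxia 1, 2.24 in normoxia 3 and 4.99 in hypoxia 1, ratios of 3.71 and 2.23. At the second PKM site the values were 0.959 and 1.81, a ratio of 1.89. Hypoxia 1 was higher in 6 of 6 pairs, with a median ratio of 2.55, and 5 of the 6 pairs rest on normoxia 3; without it 1 pair is left, at 3.71. The normoxia 3 summits lay 341 bp (GAPDH), 86 bp (ALDOA) and 65 bp (PKM) from that of hypoxia 1, and at most 14 bp at the other 2 genes. When each of the 10 normoxia summits was instead set against the nearest hypoxia 1 summit, at most 65 bp away, hypoxia 1 was higher in 9 of 10, with a median ratio of 2.48. The exception was the normoxia 3 summit of GAPDH at 6643882, with 14 reads against 9 at the hypoxia 1 summit 3 bp away (2.24 and 1.36 after correction, a ratio of 0.608). At the other 2 normoxia 3 summits of GAPDH the ratios were 2.84 and 1.79. This sets 1 hypoxia library against single normoxia libraries, and a pair enters only where both lists made a call, so no test was run.

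**Figure D5:**
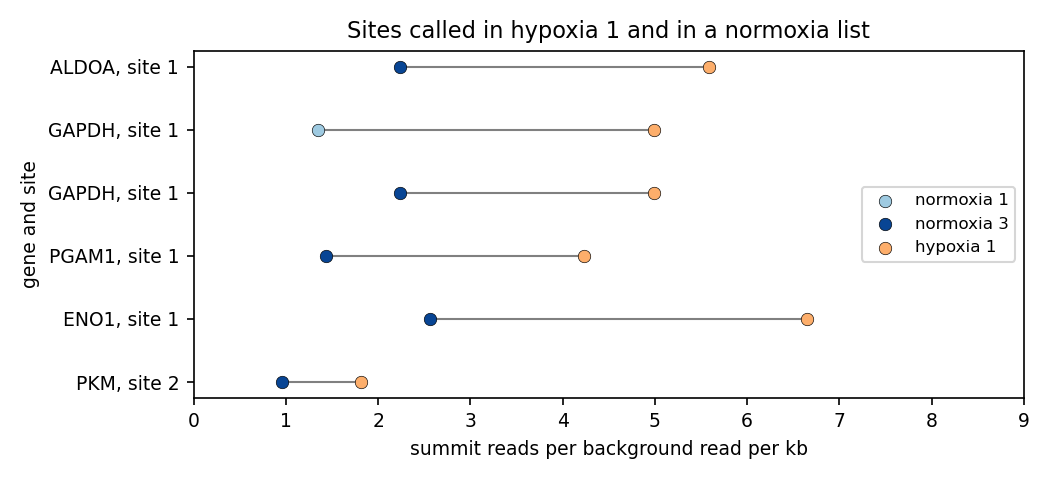
Summit reads divided by the background reads per kb, for the 6 pairs of a normoxia and a hypoxia 1 call at 1 region; all these libraries have a short fragment extension. Each point is the summit of smallest p in its list; hypoxia 1 lies to the right in 6 of 6 pairs, whereas against the nearest summit it is higher in 9 of 10.

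Where normoxia made no call, the strength of the hypoxia 1 signal sets what the missing call can show. At the genome-wide background a normoxia summit needed at least 6 reads. Over the 22 pairs of a main site and a normoxia library without a call there, the hypoxia 1 reads scaled to the normoxia depth reached that number in 22 and 2 times that number in 16. The 22 of 22 was nearly fixed in advance, since hypoxia 1 called every main site at a similar depth. At PGK1 the scaled reads came to 27.3, 24.5 and 25.5 at the depths of normoxia 1, 2 and 3, and at the main PKM site to 38.4, 34.5 and 35.9. Over a low local background, reads of that number would have passed the threshold of the normoxia lists. At TPI1 and ENO2 they came to 8.08, 7.27 and 7.56, close to the number needed, so a lower level in normoxia is not detectable at this depth for these 2 genes. At ALDOC they came to 15.2, 13.6 and 14.2.

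Of the 10 member regions called in all 3 hypoxia lists, 5 had a normoxia call, against 7.1% of all 1085 such regions. High regions were called in normoxia more often in general: among the 121 regions with a mean fold percentile of at least 95 the share was 28.1%, and of the 6 member regions in that range 4 had a normoxia call. Each region was tested by a two-sided exact permutation test of its 6 calls over 20 splits, with Benjamini-Hochberg adjustment over all 9420 regions. The main sites of ALDOC, TPI1, PGK1, ENO2 and PKM, called in 3 hypoxia and 0 normoxia lists like 10.7% of all regions, had p = 0.1 and an adjusted exact permutation p of 0.921. Those of ALDOA, PGAM1 and ENO1, with 1 normoxia call, had p = 0.4 by the same exact test, and GAPDH, with 2, had p = 1. No region of the series passed 0.05 (0 of 9420 before and after adjustment), since 3 against 3 libraries cannot go below 0.1.

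Other genes of the pathway gave a mixed picture. Of 20 such genes, 11 had summits of at least 2 hypoxia lists, 8 of all 3 and 2 of a normoxia list. For the 10 genes above these counts were 9, 9 and 5. Summed windows were 1175 kb for the 20 genes and 480 kb for the 10. Those of upper glycolysis came to 665 kb and those of other isoforms, with BPGM, to 240 kb, so counts are not like for like between lists. As general density, 5.89% of 50 kb tiles of the genome held a summit of at least 2 hypoxia lists (8.0% at 70 kb). The share was 1.66% for all 3 hypoxia lists (2.31%) and 0.205% for any normoxia list (0.288%). Some windows of the 20 genes were wider, up to 150 kb at HK1, and wider tiles were not counted. Of 8 genes of upper glycolysis, 7 were called in at least 2 (HK1, HK2, GPI, PFKL, PFKP, PFKFB3 and PFKFB4), and PFKM, the muscle phosphofructokinase, in none. A further 7 genes encode other isoforms or, for BPGM, a related mutase, and most are restricted to certain tissues. None of these was called in at least 2 (GAPDHS, PGK2, PGAM2, BPGM, ENO3, PKLR and LDHB). PKLR, the pyruvate kinase of liver and red cells, had 1 summit in hypoxia 3 with a fold of 4.30; it is named because it was the single call among these 7. LDHB, the heart-type subunit of lactate dehydrogenase, had none, so neither LDHA nor LDHB was called. Of 3 genes around pyruvate and lactate, PDK1, which encodes a pyruvate dehydrogenase kinase, was called in all 3 hypoxia libraries. The lactate transporter genes SLC16A3 and SLC16A1 were called in hypoxia 2 and 3. The SLC16A1 site stood below the median fold of both lists.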

How the data were processed

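The submitters' processing notes name BWA 0.7.17, MACS2 and hg19; no MACS2 version, peak-calling settings or duplicate filter are given there. The authors deposited 1 narrowPeak list per HIF-1α library, with the fold (a ratio to local background), the −log10 p and −log10 q of each summit, and a score that is 10 times −log10 q cut to a whole number. Lists were read with Python 3.11.15, pandas 2.3.3 and scipy 1.17.1. Whole reads and local background were recovered from fold and −log10 p within 0.001 at all 16463 summits. Planted reads were recovered in 100% of 500 simulated summits. These were made with the same formulas, so they check the inversion and not the formulas. The lowest read numbers of the lists were not simulated. The smallest background of a list, divided by its shortest interval, served as depth. Intervals on chromosomes 1 to 22, X and Y sharing at least 1 bp were joined into regions. Where an interval had several summits, that of smallest p within the window stood for it, and positions are 1-based on hg19.

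The 10 genes, the windows and the lists were chosen with earlier results of these data known. All 10 genes are named; of other pathway genes, up to 5 with the highest mean fold percentile are given values. Windows of the 20 other genes were written from knowledge of hg19; their chromosomes matched a RefSeq gene table of GRCh38.p14 in 20 of 20, and 18 were wider than the gene there. No coordinates of that table are printed. A further gene of the pathway is not reported here. Summits were not assigned to promoters or introns, since no hg19 annotation was used. Group differences were tested per region only; counts over the genes carry no p. Labels share replicate numbers between groups but do not say what a number pairs, so the main tests did not pair libraries. Alternatives were stricter thresholds, list length, window rules, definitions of overlap, ranking measure, depth correction, each library left out and a replicate block. The input libraries were not analysed here.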

Additional observations from a re-analysis of the deposited data

How the results depend on the processing

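The count of 9 genes called in at least 2 hypoxia libraries was the same under every alternative that kept at least 2 hypoxia libraries. Hypoxia 1 alone (chosen after the data were seen) also called 9 genes, but under a rule of 1 library. The 5 genes with a normoxia call became 3 with −log10 q from 5 up, 3 with folds from 6 up and 1 if 2 normoxia libraries had to call; leaving out single libraries gave 1 (without normoxia 3) to 5. The excess of 7 genes per hypoxia library ranged from 6 to 8.5 over the omissions of a library and was 7 as a replicate block, equal by construction. With the replicate block the exact sign-flip test per region, added after the data were seen, called 0 regions, since 3 pairs cannot go below 0.25. Regions called in at least 2 hypoxia libraries numbered 17, and 10 when all 3 had to call, fewer by construction; omitting a hypoxia library gave 10 (without hypoxia 2 or hypoxia 3) to 17. The median percentile of 98.6 was 95.5 when ranked by summit reads; the cause was not tested. The ratio of 2.55 was 2.70 without depth correction and 2.48 between nearest summits (added after the data were seen), where 1 of 10 ratios, at GAPDH, was below 1. At 8 to 241 reads per main summit in hypoxia, depth limits TPI1 and ENO2 in hypoxia 1 most.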

Other observations

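Among the other pathway genes, GPI, which isomerises glucose 6-phosphate, and PDK1 had the same calls as ALDOA, PGAM1, ENO1 and PKM: all 3 hypoxia libraries and normoxia 3. GPI had 61, 195 and 219 summit reads in hypoxia 1, 2 and 3 and 9 in normoxia 3, and ranked 4 of 1408 by fold in hypoxia 1. PDK1 had 24, 173 and 145 reads in hypoxia and 7 in normoxia 3. SLC2A1, HK1, HK2, PFKP, PFKFB3 and PFKFB4 shared the calls of ALDOC, TPI1, PGK1 and ENO2, in hypoxia only. In hypoxia 1 the calls of SLC2A1 and HK1 were below the median fold of the list, and that of SLC2A1 was not at its main site. PFKFB3, which makes the activator of phosphofructokinase, had folds of 14.5, 46.9 and 55.7, PFKFB4, a second such enzyme, 10.9, 26.1 and 47.3, and HK2, the inducible hexokinase, 12.3, 26.5 and 20.3 in hypoxia 1, 2 and 3.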
